A study of Homo sapiens with 12 samples.

Results

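A set of 10 rows of a count table of 61255 rows was examined because these rows were counted in the libraries of one engineered cell line, APEX-NES, and were nearly absent from those of its sister lines. The rows are OLFM3, RPSAP19, MYL1, LANCL1, VCPKMT, RPLP0P2, F11R, ATF6, ABHD17B and LIN7C. They were picked by their counts in the 4 NES libraries against the 8 others, so the difference between lines is a description here and was not tested. The data are 12 RNA-seq libraries from Huh-7.5, a human liver cancer cell line, made to express APEX2, a peroxidase used for proximity labelling. The groups were APEX-NES mock, APEX-NES with sodium arsenite, APEX-NLS mock, APEX-NLS with sodium arsenite, APEX-G3BP1 mock and APEX-G3BP1 with sodium arsenite, with 2 libraries each, and the arsenite groups had received 0.5 mM for 45 minutes. All groups carry an APEX2 construct, so no group is the parental line. The labels used here give neither the promoter of the construct nor whether a line is 1 clone, so the construct and any other difference between the cultures cannot be told apart.

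An NES is commonly a signal for export from the nucleus and an NLS one for import into it, and G3BP1 is a scaffold protein of stress granules. Arsenite causes oxidative stress, stops most translation and drives messenger RNA into such granules. Of the 10 rows, 8 belong to protein-coding genes and 2 are pseudogenes, copies of a gene that have lost its coding function. Among the coding genes, F11R is a tight-junction adhesion molecule, LIN7C a polarity scaffold, ATF6 a membrane-bound transcription factor of the unfolded protein response, and VCPKMT, ABHD17B and LANCL1 are a lysine methyltransferase of the chaperone VCP, a protein depalmitoylase and a glutathione-binding protein. OLFM3 is a secreted olfactomedin of nervous tissue and MYL1 a myosin light chain of fast skeletal muscle, neither of them a typical product of liver cells.

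Library totals ranged from 1090308 to 1461067 counts, and the lines held 34.0% (NES), 34.2% (NLS) and 31.8% (G3BP1) of all counts. A level of 3 counts, the limit taken for a count of 0 and used here as the floor, was 2.08 to 2.88 CPM (counts scaled to a common library size, after TMM scaling). Floors and intervals reflect counting error alone, because the reads carry no molecular identifiers and may be copies of 1 molecule. Intervals of NES shares also take no account of how the rows were picked, so they are descriptions. TALAM1, the antisense partner of MALAT1, had 44233 to 81932 counts per library and MALAT1 16 to 37, although the library kit keeps the strand of the RNA. Each gene name here stands for its row, and whether its counts come from the named gene or from the other strand was not tested. Of 15 hepatocyte markers, 9 had more than 3 counts in every library, and their summed level was 233 to 297 CPM in NES, 222 to 307 in NLS and 342 to 411 in G3BP1 libraries. Of 6 fibroblast and 6 leukocyte markers, 1 of each exceeded 3 counts in every library and 1 of each was at 0 in all. The summed levels of these lists were 11.8 to 53.0 CPM and 14.1 to 24.8 CPM in NES libraries, 9.93 to 37.1 CPM and 15.9 to 26.0 CPM in NLS libraries, and 5.51 to 50.6 CPM and 17.1 to 27.9 CPM in G3BP1 libraries. In RNA from whole cultures, fewer cells with a transcript and less of it per cell cannot be told apart.

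The sequences of the pseudogenes bear on what their rows can hold, because a read can be placed on a copy or on its parent. RPSAP19 aligned to its parent RPSA, which encodes a protein of the small ribosomal subunit, over 883 positions with 98.3% identity, 12 mismatches and a longest identical run of 182 bases. RPLP0P2 aligned to RPLP0, which encodes a stalk protein of the large subunit, over 1100 positions with 93.9% identity, 59 mismatches and a longest identical run of 53 bases. The stretches of 100 bases with the most differences are shown from GENCODE release 29 transcripts, with the differing bases in capitals, 3 in the first pair and 10 in the second.
RPSAP19 bases 89 to 188: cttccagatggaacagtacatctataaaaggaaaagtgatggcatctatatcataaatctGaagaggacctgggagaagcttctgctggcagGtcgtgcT
RPSA bases 202 to 301: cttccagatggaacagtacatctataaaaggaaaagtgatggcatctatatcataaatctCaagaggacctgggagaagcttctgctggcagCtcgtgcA
RPLP0P2 bases 1435 to 1534: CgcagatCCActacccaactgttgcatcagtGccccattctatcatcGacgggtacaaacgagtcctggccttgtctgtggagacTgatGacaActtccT
RPLP0 bases 857 to 956: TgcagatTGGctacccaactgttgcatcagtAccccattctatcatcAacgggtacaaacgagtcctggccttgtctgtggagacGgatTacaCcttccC
The rows of the parents were low in every line. They cannot show whether reads of the parents were placed on the copies, which was not tested. RPSA had 0 to 6 counts per library over all 12 libraries, around the floor of 3 counts. RPLP0 had 1 to 7 counts in NES, 7 to 12 in NLS and 7 to 15 in G3BP1 libraries.

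RefSeq promoter windows, 250 bases before to 50 bases after a start site on GRCh38.p14, were present for 7 of the 10 members. Those of VCPKMT, LIN7C and ATF6 are shown because another measured row lies next to each of them: SOS2 behind VCPKMT, and the oppositely directed rows BDNF-AS and ATF6-DT next to LIN7C and ATF6. Capitals mark GC boxes (GGGCGG) and CCAAT boxes (CCAAT) on either strand, and each window is written in the direction of its gene.
VCPKMT, chr14:50116523-50116822, minus strand: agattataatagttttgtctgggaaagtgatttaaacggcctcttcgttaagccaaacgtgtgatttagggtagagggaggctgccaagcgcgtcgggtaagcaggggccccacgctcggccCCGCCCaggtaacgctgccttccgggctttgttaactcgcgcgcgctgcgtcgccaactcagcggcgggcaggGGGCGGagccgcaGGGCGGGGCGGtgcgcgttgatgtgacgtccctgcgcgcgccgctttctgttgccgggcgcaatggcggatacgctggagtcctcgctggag
LIN7C, chr11:27506720-27507019, minus strand: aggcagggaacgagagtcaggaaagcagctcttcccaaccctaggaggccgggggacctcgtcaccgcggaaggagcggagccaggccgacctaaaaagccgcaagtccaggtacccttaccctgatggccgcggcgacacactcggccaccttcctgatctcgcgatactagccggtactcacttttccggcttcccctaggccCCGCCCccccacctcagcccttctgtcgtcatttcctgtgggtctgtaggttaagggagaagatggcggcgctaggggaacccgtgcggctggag
ATF6, chr1:161766070-161766369, plus strand: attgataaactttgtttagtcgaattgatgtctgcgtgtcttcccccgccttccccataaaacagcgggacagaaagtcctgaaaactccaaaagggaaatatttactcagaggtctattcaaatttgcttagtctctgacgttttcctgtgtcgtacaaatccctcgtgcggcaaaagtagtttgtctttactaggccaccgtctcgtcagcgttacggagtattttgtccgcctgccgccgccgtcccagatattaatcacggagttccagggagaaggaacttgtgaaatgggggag
These windows held 35, 22 and 17 CpG dinucleotides, against a median of 14 over 35116 windows. Those of the other members were at or below this median, with 14 in ABHD17B, 11 in LANCL1, 9 in OLFM3 and 3 and 2 in the pair of MYL1. VCPKMT had 4 GC boxes, a pair of them overlapping, LIN7C had 1 and ATF6 had 0. Over the 7 members, 4 had a GC box, which 45.0% of all windows hold, and 3 a CCAAT box, which 34.6% hold. The stress motifs searched on both strands were AP-1 (TGACTCA), CRE (TGACGTCA), ARE (TGACNNNGC), HSE (GAANNTTC) and ERSE (CCAAT, then any 9 bases, then CCACG), and the TATA box (TATAAA) was searched as well. ARE and the TATA box matched in 1 member, MYL1, against 13.3% and 11.5% of all windows, and AP-1, CRE, HSE and ERSE matched in none, against 4.95%, 1.85%, 6.77% and 0.0769%. A match or its absence describes only the letters of these windows.

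Within the NES line the rows had from 10 to 163 counts per library. VCPKMT was the most counted, with 163 and 154 counts in NES mock and 85 and 64 in NES arsenite libraries. It had 0 counts in all NLS libraries and 1, 0, 2 and 0 in the G3BP1 libraries, so that 99.4% of its 469 counts lay in NES (95% exact binomial interval from 98.1%). RPLP0P2 had 108 and 112 counts in NES mock, 63 and 72 in NES arsenite, and 1 count in all other libraries together. F11R had 138 and 121 counts in NES mock and 51 and 43 in NES arsenite libraries, against 8 in the NLS and 2 in the G3BP1 libraries summed. The NES and the other libraries did not overlap in any of these rows, which follows from the way they were picked.

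The 2 rows on the short arm of chromosome 1 had near-equal counts. OLFM3 had 67 and 72 counts in NES mock and 98 and 80 in NES arsenite libraries, and 3 counts elsewhere. RPSAP19 had 72 and 68 in NES mock and 86 and 67 in NES arsenite libraries. It was at 0 in all 8 other libraries, so that 3 of its 293 counts, the limit taken for a count of 0, put its share outside NES at up to 1.02%, and the lower bound of the exact interval of its NES share was 98.7%. On chromosome 2, MYL1 had 32 and 35 counts in NES mock and 38 and 30 in NES arsenite libraries, with 1 count elsewhere, and its neighbour LANCL1 had 37 and 60 and then 46 and 32, with 5 elsewhere. Replicates of LANCL1 in mock lay further apart (36.9 ± 13.6 CPM, SD, n = 2) than those of MYL1 (25.3 ± 2.51 CPM, SD, n = 2).

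The other 3 rows were the least counted. ABHD17B had 32 and 36 counts in NES mock and 29 and 14 in NES arsenite libraries, LIN7C 26 and 28 and then 20 and 15, and ATF6 21 and 17 and then 10 and 13. Outside NES they had 9, 5 and 3 counts over 8 libraries. Their NES shares were 92.5%, 94.7% and 95.3%, with lower bounds of 86.2%, 88.0% and 86.9%, the lowest among the 10 rows. No member exceeded 2 counts in a G3BP1 library or 4 in an NLS library, and all 10 together had 24 counts in the NLS and 16 in the G3BP1 libraries. A count of 1 to 4 in such a library is at or near the floor. Because no member passed 3 counts in any G3BP1 library, an arsenite effect in that line was not read for any of them.

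**Figure D1:**
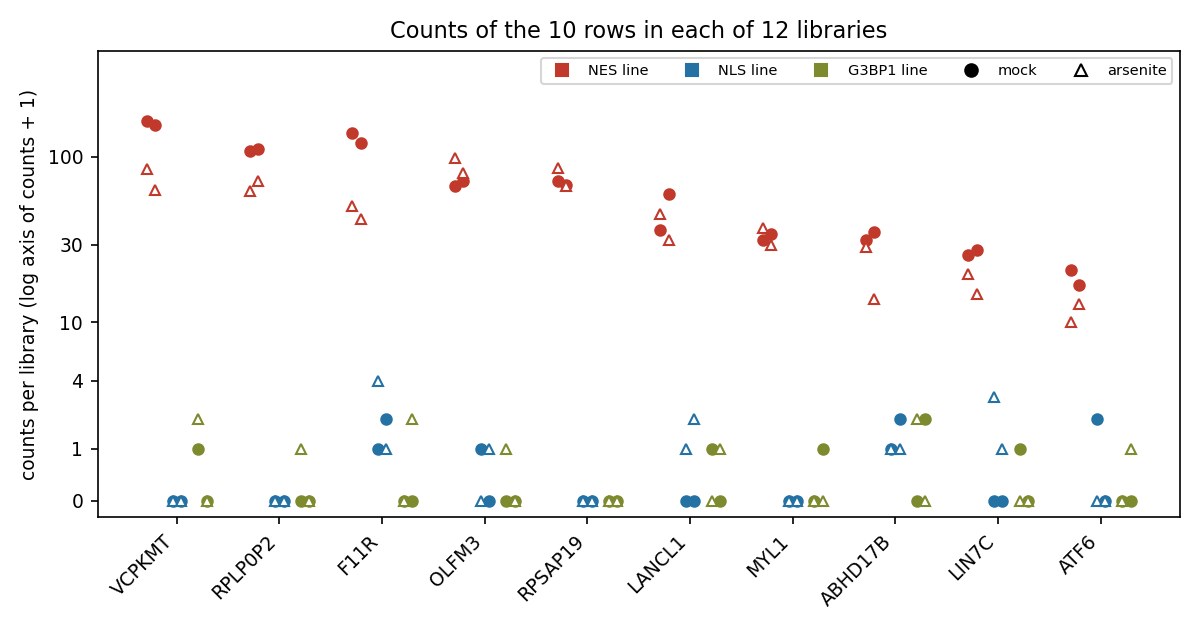
Counts per library (log axis of counts + 1) of the 10 rows in the 12 libraries, coloured by line, with circles for mock and open triangles for arsenite. NES libraries lie between 10 and 163 counts and all others at 4 or below.

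Scaled by the length of annotated exons, the order of the rows changed. In NES mock libraries RPSAP19, a single exon of 880 bases, had 60.1 ± 0.284 CPM per kb (SD, n = 2) and VCPKMT 58.2 ± 0.261 CPM per kb. RPLP0P2 (21.3 ± 1.31), F11R (19.3 ± 1.104) and MYL1 (18.9 ± 1.87 CPM per kb) followed, each overlapping the next within their SDs, and OLFM3 had 11.7 ± 1.01 CPM per kb. ABHD17B (8.69 ± 1.03) and LANCL1 (7.02 ± 2.59 CPM per kb) overlapped within their SDs, as did LANCL1 and LIN7C (4.36 ± 0.383 CPM per kb), and ATF6 had the lowest mean (1.81 ± 0.206 CPM per kb). These levels use GENCODE release 29, which may not be the annotation behind the counts.

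Arsenite against mock inside the NES line is not the contrast by which the rows were picked, although earlier results of these data were known then. F11R, VCPKMT and RPLP0P2 fell, none rose, and 7 did not pass the test (edgeR quasi-likelihood test, adjusted p under 0.05 over 13108 rows). Over all rows tested, 9.41% fell and 10.9% rose, 20.3% in either direction. F11R went from 97.7 ± 5.59 to 37.2 ± 0.983 CPM (SD, n = 2 each), which is -1.39 on the log2 scale (SE 0.193, adjusted p = 1.63e-09 by edgeR). VCPKMT went from 119.7 ± 0.536 to 58.6 ± 3.14 CPM (SD, n = 2 each), or -1.02 on the log2 scale (SE 0.175, adjusted p = 9.20e-07 by edgeR). Both rows were lower in each arsenite library than in each mock library. LIN7C and ATF6, which were not called, were as well, so this order adds nothing to the calls.

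RPLP0P2 went from 83.2 ± 5.10 to 54.3 ± 12.98 CPM (SD, n = 2 each), or -0.63 on the log2 scale (SE 0.186, adjusted p = 0.00721 by edgeR). This call was lost without NES mock replicate 2 (edgeR adjusted p = 0.0902), without NES arsenite replicate 1 (edgeR adjusted p = 0.304) and with DESeq2 (adjusted p = 0.371). Of the rows that did not pass, ATF6 (-0.65, SE 0.461), ABHD17B (-0.60, SE 0.324), LIN7C (-0.56, SE 0.371) and LANCL1 (-0.25, SE 0.249) had log2 fold changes below 0, with edgeR adjusted p-values from 0.192 to 0.528. OLFM3 (0.42, SE 0.192), RPSAP19 (0.19, SE 0.198) and MYL1 (0.08, SE 0.285) lay above 0, with edgeR adjusted p-values from 0.111 to 0.885. At an unadjusted p under 0.05, 1 row was higher by edgeR (OLFM3) and 0 by DESeq2. The median log2 fold change was -0.58 over the 10 rows and -0.018 over all rows tested.

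**Figure D2:**
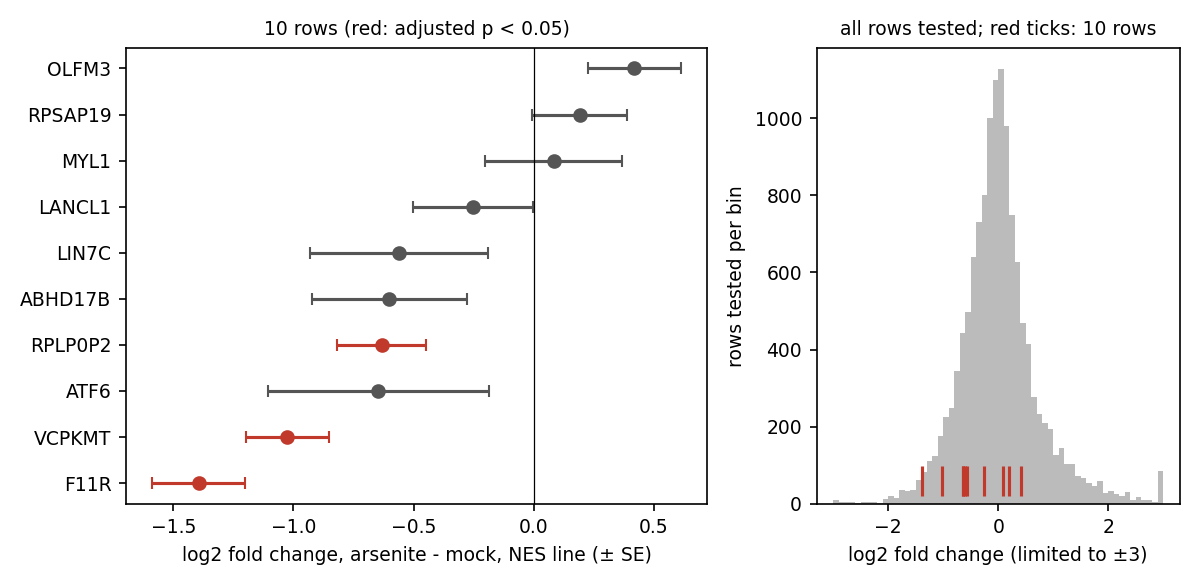
Left, log2 fold change of arsenite against mock in the NES line for the 10 rows, with bars of 1 SE and called rows in red. Right, the same quantity for all 13108 rows tested, with the 10 rows as red ticks. F11R, VCPKMT and RPLP0P2 were called lower, and the values of the members spread from -1.39 to 0.42.

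In GENCODE release 29 on GRCh38, the members lie on 5 chromosomes, and 8 of the 10 are on the minus strand. The submitters' processing notes name GRCh38.p13, whose patches leave chromosome positions as in GRCh38. RPSAP19 (chromosome 1, 101786340 to 101787219) and OLFM3 (101802574 to 101997030) are separated by 15354 bases on the same strand. F11R (160995211 to 161021348) and ATF6 (161766294 to 161964070) lie on the long arm of chromosome 1, 744945 bases apart and on opposite strands. MYL1 (chromosome 2, 210290150 to 210315190) and LANCL1 (210431249 to 210477652) are 116058 bases apart on the same strand. ABHD17B is on chromosome 9 (71862452 to 71910931) and VCPKMT on chromosome 14 (50108632 to 50116600). LIN7C (27494576 to 27506773) and RPLP0P2 (61615036 to 61639449) lie on different arms of chromosome 11. Counting by annotated overlap of exons, RPSAP19 shared 221 bases with LINC01709 on the other strand, F11R shared 1853 bases with the protein-coding row ENSG00000270149 on its own strand, and the other 8 shared none.

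The rows around the members were then compared between NES and the mean of the NLS and G3BP1 lines. Within 200 kb of a member lay 108 other rows, of which 34 passed the filter. Of these, 9 were higher in NES, 2 were lower and 23 did not pass the test (edgeR, adjusted p under 0.05), where 4.72% of all rows tested were higher and 4.27% lower, 8.99% in either direction. The filter itself favoured part of this: 5 of the 9, SOS2, ENSG00000270149, USF1, ACADL and CEMIP2, passed it only through the NES libraries, so that they had to be higher there. Their levels by line are given as a description, with no test. Among the 29 that pass it without the NES libraries, 4 were higher, 13.8% against 4.37% of all such rows, and 2 were lower, against 4.51%, with 8.88% of all such rows called in either direction. This restriction was added after the data were seen. The 4 were BDNF-AS, LINC01588, BDNF and MYRF-AS1. Because NLS and G3BP1 were averaged, a low G3BP1 level alone can raise the difference. BDNF counts per library spanned 50 to 64 (NES), 41 to 69 (NLS) and 17 to 30 (G3BP1). Those of MYRF-AS1 spanned 80 to 119 (NES), 79 to 95 (NLS) and 44 to 51 (G3BP1). Both rows thus overlapped NLS. BDNF-AS and LINC01588 had more counts in each NES library than in any other library.

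SOS2, a guanine nucleotide exchange factor of RAS, lies 519 bases upstream of VCPKMT on the same strand and showed the pattern of the member. It had 245 and 215 counts in NES mock and 151 and 118 in NES arsenite libraries, and at most 4 counts in any other library. Its level in NES was 139.8 CPM against 1.30 CPM in NLS and 0.240 CPM in G3BP1, both of the latter below the floor. SOS2 also fell with arsenite in NES (log2 fold change -0.71, SE 0.150, edgeR adjusted p = 9.78e-05), as VCPKMT did. LINC01588, a long non-coding row 15988 bases downstream on the same strand, was at 14.7 CPM in NES, 6.51 in NLS and 7.32 in G3BP1 (log2 difference 1.08, SE 0.256, edgeR adjusted p = 0.00125). Its call was lost in arsenite libraries alone (edgeR adjusted p = 0.208).

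At F11R the next same-strand rows upstream were also counted mostly in NES, and the row beyond them was counted in all lines. ENSG00000270149, which shares exon bases with F11R and is no independent measure, had 71 and 65 counts in NES mock, 24 and 25 in NES arsenite and at most 4 elsewhere. TSTD1, 16.3 kb upstream, was too low to be tested, with 8, 6, 6 and 3 counts in NES and at most 2 elsewhere. USF1, which encodes a helix-loop-helix transcription factor, lies 17.9 kb upstream and had 23, 31, 15 and 17 counts in NES and at most 4 elsewhere, or 16.7 CPM in NES against 1.46 in NLS and 0.428 in G3BP1, both below the floor. ARHGAP30, 25.6 kb upstream, did not differ detectably, with 73.3 CPM in NES, 74.0 in NLS and 56.0 in G3BP1 (log2 difference 0.17, SE 0.105, edgeR adjusted p = 0.363).

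Around MYL1 and LANCL1, ACADL was counted mostly in NES and the other tested rows in all lines. ACADL, a long-chain acyl-CoA dehydrogenase of fatty acid oxidation, lies 64.7 kb downstream of MYL1 and had 36.5 CPM in NES, 5.60 in NLS and 2.97 in G3BP1 libraries. It fell with arsenite in NES (log2 fold change -0.92, SE 0.237, edgeR adjusted p = 0.00165), where MYL1 did not pass the test. KANSL1L further downstream did not differ detectably (log2 difference 0.01, SE 0.0533, edgeR adjusted p = 0.967). LANCL1-AS1, which overlaps the LANCL1 gene body on the other strand, did not differ detectably either, with 24.1 CPM in NES, 27.5 in NLS and 20.5 in G3BP1 (log2 difference 0.01, SE 0.168, edgeR adjusted p = 0.984).

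CEMIP2, a cell-surface hyaluronidase 45.8 kb downstream of ABHD17B on the same strand, had 55 and 57 counts in NES mock, 33 and 26 in NES arsenite and 2 to 12 in the others. Its level was 32.8 CPM in NES, 6.22 in NLS and 2.84 in G3BP1. CEMIP2 fell with arsenite in NES (log2 fold change -0.86, SE 0.247, edgeR adjusted p = 0.00587). BDNF-AS lies 64 bases from the LIN7C gene and runs the other way. It was counted in every line but was higher in NES (72.3 CPM against 39.9 in NLS and 39.4 in G3BP1, log2 difference 0.89, SE 0.119, edgeR adjusted p = 5.34e-10). BDNF, which encodes a neurotrophin and lies 148 kb upstream of LIN7C, was at 46.3 CPM in NES, 37.4 in NLS and 21.2 in G3BP1 (log2 difference 0.71, SE 0.144, edgeR adjusted p = 9.36e-05). LGR4-AS1 and LGR4 on the other side of LIN7C did not differ detectably (log2 differences 0.20 and 0.03, edgeR adjusted p = 0.523 and 0.976).

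**Figure D3:**
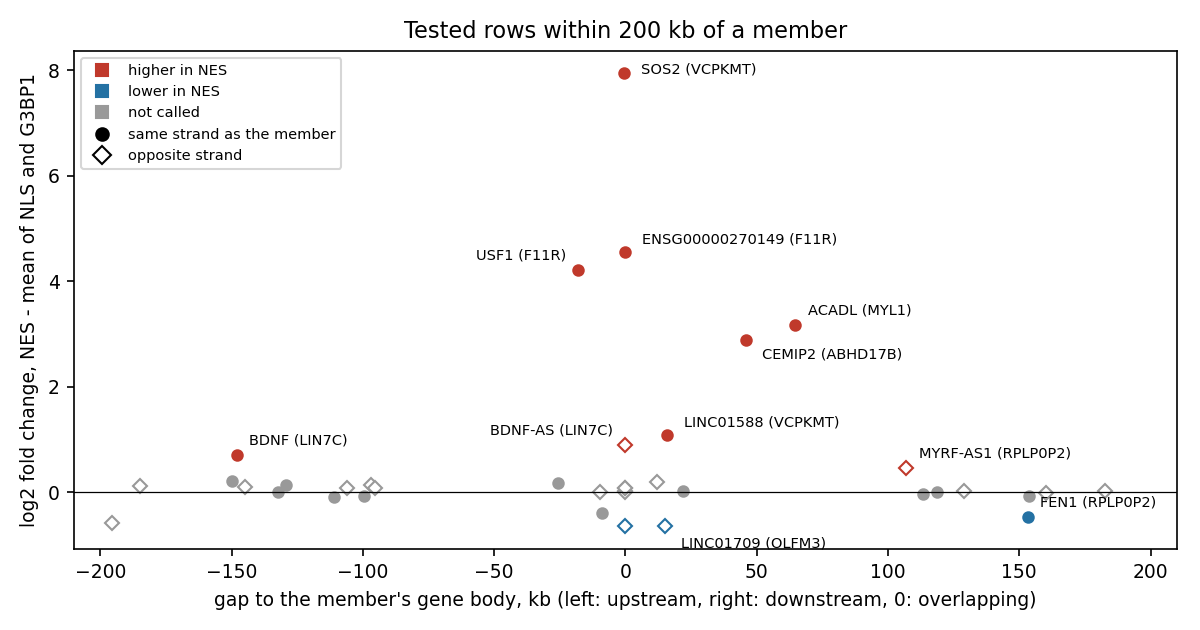
Log2 difference between NES and the mean of NLS and G3BP1 for the tested rows within 200 kb of a member, against the gap to the gene body of that member in kb (left upstream, right downstream). Filled circles are on the strand of the member and open diamonds on the opposite strand. SOS2, ENSG00000270149, USF1, ACADL and CEMIP2 passed the filter only through the NES libraries and had to lie high. BDNF-AS, BDNF, MYRF-AS1 and LINC01588 were the other rows called higher.

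At the other members the tested neighbours were counted in all lines. ATF6-DT lies 66 bases from ATF6 and runs the other way, and had 65 to 79 counts in NES, 51 to 83 in NLS and 52 to 90 in G3BP1 libraries (log2 difference 0.01, SE 0.117, edgeR adjusted p = 0.973). ENSG00000285636, 183 kb downstream of ATF6, did not differ detectably either (log2 difference 0.01, SE 0.159, edgeR adjusted p = 0.979). ENSG00000229808, a pseudogene inside ATF6 on the same strand, was too low to be tested, with 3, 4, 3 and 2 counts in NES and 0 in the 8 other libraries. LINC01709, which overlaps RPSAP19 on the other strand, was lower in NES, with 368 CPM against 495 in NLS and 669 in G3BP1 (log2 difference -0.65, SE 0.0502, edgeR adjusted p = 1.75e-24). Within OLFM3, the opposite-strand pseudogenes DNAJA1P5 and ENSG00000271277 did not differ detectably (log2 differences 0.08 and 0.08, edgeR adjusted p = 0.871 and 0.919). The nearest tested rows beside RPLP0P2 were MYRF-AS1, 107 kb downstream, and ENSG00000256591, 129 kb upstream. MYRF-AS1 was at 70.8 CPM in NES, 64.0 in NLS and 41.8 in G3BP1 (log2 difference 0.46, SE 0.111, edgeR adjusted p = 0.00176), a call lost without NES arsenite replicate 1 (edgeR adjusted p = 0.0584) and in mock libraries alone (edgeR adjusted p = 0.573). FEN1, a nuclease of DNA replication 153 kb downstream on the same strand, was the other lower neighbour (log2 difference -0.48, SE 0.110, edgeR adjusted p = 0.000818). The FEN1 level in mock libraries was 30.9 CPM for NES, 74.3 for NLS and 48.3 for G3BP1. With arsenite it was 103 CPM for NES, 106 for NLS and 98.7 for G3BP1. In arsenite libraries alone its line difference was 0.00056 (edgeR adjusted p = 0.9999), and it rose with arsenite in NES by 1.72 on the log2 scale (SE 0.181, edgeR adjusted p = 4.24e-15). ENSG00000256591 did not differ detectably (log2 difference 0.13, SE 0.0584, edgeR adjusted p = 0.147).

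**Figure D4:**
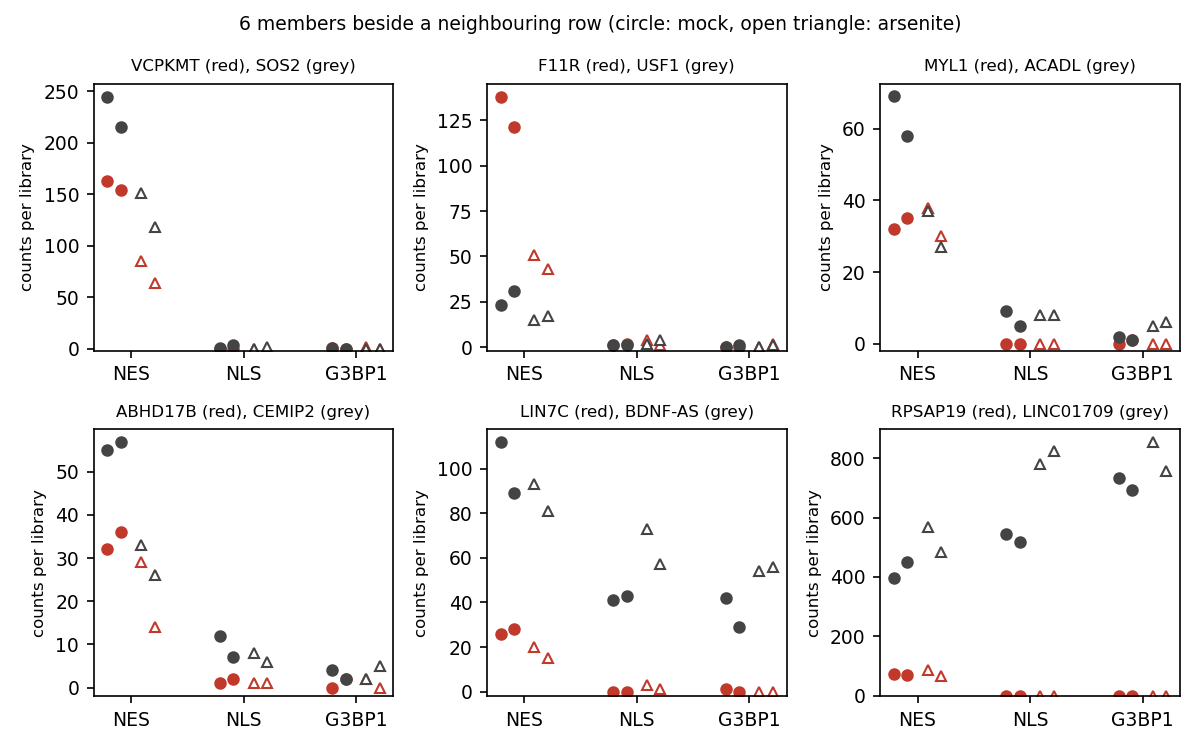
Counts per library of 6 members (red) and a neighbouring row (grey) in the 3 lines, with circles for mock and open triangles for arsenite. SOS2 and USF1 stay at 4 counts or below outside NES, ACADL and CEMIP2 are lower there, and BDNF-AS and LINC01709 are counted in every line.

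Among the 9 neighbours that were higher in NES, 4 fell with arsenite in that line, namely SOS2, ENSG00000270149, ACADL and CEMIP2, and 0 rose (edgeR, adjusted p under 0.05, with 9.41% of all rows lower and 10.9% higher). At an unadjusted p under 0.05 the same test gave 4 lower and 0 higher, and DESeq2 called 1 lower and 0 higher. The 4 named rows all passed the filter only through the NES libraries. ENSG00000270149 shares exon bases with F11R and is no independent measure, so the count is a description.

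The 10 rows are part of a wider set with the same shape. Of 10794 rows with at least 40 counts over the NES libraries, 33 (0.306%) had at least 90% of their summed CPM in NES, all 10 members among them. By the same measure 53 rows belonged to NLS and 0 to G3BP1. Just inside the limit was LINC02428, with 90.05% and 391 counts in NES, and just outside were ENSG00000254212 (89.98%) and USF1 (89.9%). The most counted of the 23 rows outside the members were POU5F2, a POU-domain transcription factor with 1042 NES counts, SOS2 with 729, LINC02428 with 391, ENSG00000286760 with 260 and ENSG00000270149 with 185. Of the 33 rows, 8 fell and 1 rose with arsenite in NES, against 9.41% and 10.9% of all rows. The 8 were the 3 members already given, SOS2, ENSG00000270149, LINC02428, LINC01252 and ENSG00000288881. They are not all independent, because ENSG00000270149 shares exon bases with F11R and SOS2 lies 519 bases from VCPKMT. Of the 53 rows of NLS, 52 were tested in their own line, where 12 fell and 0 rose against 8.14% and 9.67% of all rows, 17.8% in either direction. That contrast was added after the data were seen. MAPK6P2, named after its values were seen, was the row that rose in NES, from 22 and 22 to 70 and 47 counts (log2 fold change 1.47, SE 0.272, edgeR adjusted p = 6.88e-06).

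The rows most like the mean of the members over the 12 libraries, among 10784 others with a mean of at least 10 counts per NES library, were ENSG00000270516, ENSG00000285679, LINC01689, LINC01252 and STAM-DT, with Pearson's r of log2(CPM + 1) from 0.990 to 0.999. They had 14 to 64 counts per NES library and at most 1 in any other. None lies within 200 kb of a member. LINC01252 fell with arsenite (-1.30 on the log2 scale, SE 0.279, adjusted p = 0.000132 by edgeR), and the other 4 did not pass the test. These correlations describe rows picked by the same shape and rest on the contrast of 4 libraries with 8.

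Relatives of the members that were tested did not share their restriction to NES. Of 29 relatives, such as JAM3 for F11R and LIN7B for LIN7C, 14 were tested, and 0 were higher and 1 lower in NES, with 1 and 2 at an unadjusted p under 0.05 by edgeR and 0 called by DESeq2. The lower row was RPLP0 (3.40 CPM in NES, near the floor, against 7.45 in the other lines, log2 difference -1.20, SE 0.405, edgeR adjusted p = 0.0429). With arsenite in NES, 4 relatives rose and 1 fell by edgeR, where 10.9% of all rows rose and 9.41% fell, and DESeq2 called 1. JAM3, an adhesion molecule of the F11R family, rose from 90.6 to 157 CPM, a log2 change of 0.80 (SE 0.127, adjusted p = 1.58e-07 by edgeR). LIN7B, a paralog of LIN7C, rose from 3.04 CPM, near the floor, to 11.3 CPM (1.84, SE 0.570, edgeR adjusted p = 0.0112). MYL6B, another myosin light chain, and METTL21A, a protein methyltransferase related to VCPKMT, rose by 0.98 and 0.54 on the log2 scale (edgeR adjusted p = 0.0185 and 0.0219). MYL6, a non-muscle myosin light chain, fell by 0.31 on the log2 scale (SE 0.0926, edgeR adjusted p = 0.00740). The median over the 14 relatives was 0.22.

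Of 25 genes of the unfolded protein response around ATF6, 13 were tested. With arsenite in NES 4 rose and 0 fell, with 5 and 0 at an unadjusted p under 0.05 by edgeR and 1 called by DESeq2, where 10.9% of all rows rose and 9.41% fell, while the ATF6 row itself did not pass the test. HSP90B1, a chaperone of the endoplasmic reticulum, rose from 34.8 to 65.1 CPM, a log2 change of 0.92 (SE 0.204, adjusted p = 0.000226 by edgeR). ATF4, the transcription factor of the integrated stress response, rose from 3.41 to 13.4 CPM (1.95, SE 0.510, edgeR adjusted p = 0.00205). Its mock level lay near the floor. SYVN1 and HSPA5 rose by 0.62 and 1.02 on the log2 scale (edgeR adjusted p = 0.0165 and 0.0460). The median over the 13 genes was 0.59. Between lines 0 of these 13 were called, with 0 higher and 2 lower at an unadjusted p under 0.05 by edgeR and 0 called by DESeq2. Of 19 junction and polarity partners of F11R and LIN7C in the table, 7 were tested. With arsenite 0 were called, also at an unadjusted p under 0.05 by edgeR and by DESeq2, and the median was -0.08.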

How the data were processed

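RNA of whole cells was measured in 12 libraries, grouped by the line, treatment and replicate number in the sample titles. Per the labels' protocols, ribosomal RNA was depleted and a directional kit was used. The authors deposited raw counts per row, and the unit was read from the values. The submitters' processing notes name Trim Galore, Subread, featureCounts, edgeR and GRCh38.p13, and the strand setting and annotation are not given in the sources used here. The table has 16 columns, and the 4 that fit no label were set aside.

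The counts were tested with edgeR 4.0.16 (R 4.3.3): TMM, filterByExpr (minimum count 10, minimum total 15), 1 mean per group with 6 residual degrees of freedom, the quasi-likelihood F test and Benjamini-Hochberg adjustment over 13108 rows. Each SE is the log2 fold change divided by the root of its F statistic. On simulated data, 85% of 200 rows changed 4-fold in NES arsenite libraries were recovered, with 8 false calls among 13108 rows. A total of 56981 rows were matched to a single gene of GENCODE release 29. The members and lists were chosen with earlier results of these data known. All members were named, and of the rows within 200 kb those overlapping a member, the nearest tested on each side and those called, at most 3 a member. At most 4 called genes a list, the 5 most alike rows and the 5 largest line-restricted rows were named too. ARHGAP30, KANSL1L, LGR4, TSTD1, MAPK6P2, ENSG00000288881 and further called relatives were named after their values were seen. The line contrast of the junction and polarity list is not reported here.

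Nothing in the labels says that replicates were separate cultures, so p-values measure the spread between these libraries, which may be technical. Replicates of each group differed beyond sampling noise (chi-square per degree of freedom from 1.11 to 1.39). Alternatives were DESeq2 1.42.0, 2 other scalings, 2 other filters, a replicate block, fits to part of the libraries, windows of 100 and 500 kb, and leaving out each library.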

Additional observations from a re-analysis of the deposited data

How the results depend on the processing

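Over 20 alternatives, F11R and VCPKMT kept their direction and their call with arsenite, RPLP0P2 lost its call in 3 and kept its direction, and the other 7 members were called in none. LANCL1, not called, ranged from -0.58 without NES mock replicate 1 to 0.19 without NES mock replicate 2. Members called lower numbered 2 to 3 and those called higher 0 when 1 library was left out. Same-numbered mock and arsenite libraries did not deviate together detectably (r from -0.0562 to 0.00907 across 6521 rows). Replicates differed little beyond sampling noise, so this cannot tell whether the numbers pair the libraries. With the replicate number as a block in the fit, 3 members were called lower and 0 higher, with 9 neighbours higher and 2 lower in NES, and the block changed no call of a member. An arsenite effect of the members in G3BP1 was not run because none exceeded 3 counts there.

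Over all rows, DESeq2 called 620 rows higher and 383 lower with arsenite in NES, against 1425 and 1233. Leaving out 1 library gave 987 to 1547 higher and 745 to 1242 lower, the lowest of the latter without NES arsenite replicate 2 and with 763, 756 and 759 without NES mock replicate 1, NES mock replicate 2 and NES arsenite replicate 1. Between lines, DESeq2 called 189 rows higher and 227 lower in NES, against 619 and 560, mock libraries alone gave 338 and 248, and arsenite libraries alone 309 and 263. Leaving out 1 library gave 415 to 650 higher and 380 to 540 lower. Neighbours called higher numbered 4 with DESeq2, 14 within 500 kb, and 4 among rows that pass the filter without the NES libraries. The 4 of DESeq2 were SOS2, BDNF-AS, BDNF and MYRF-AS1, and it gave no adjusted p for the other 5. They are not the same 4 as those that pass without the NES libraries, which hold LINC01588 in place of SOS2. For SOS2, ENSG00000270149, USF1, ACADL and CEMIP2, which had to be higher in NES, no setting is a test. Neighbours called lower numbered 1 in arsenite libraries alone, where FEN1 was at 0.00056 on the log2 scale, 1 within 100 kb and 6 within 500 kb, against 2. Leaving out 1 library gave 8 to 9 neighbours higher and 2 lower. At 10 to 163 counts per library, the 7 members not called had SEs of 0.192 to 0.461 on the log2 scale. Changes larger than 1 SE could also go uncalled at this depth, as for OLFM3 (0.42, SE 0.192).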
